A study of Mus musculus with 20 samples.

Results

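The messenger RNA of 8 migration receptors was followed in mouse spleen cells under a B cell stimulation cocktail. The receptors were Gpr15, Gpr183, Cxcr4, Cxcr5, Ccr6, Ccr7, S1pr1 and S1pr2, taken by their symbols from the 41115 genes of the count tables, where all 8 were found. Stimulated libraries came from 1 mouse treated with lipopolysaccharide, interleukin 4 and transforming growth factor beta (LPS, IL4, TGFb), and untreated libraries from 1 mouse without the cocktail. Each arm was sampled at 0, 15 and 30 min and at 1, 2, 3, 6, 12, 24 and 48 h, with 1 poly-A library per arm and time, so 10 stimulated and 10 untreated libraries were compared. No allele, strain or age was given in the labels, whether the cells were cultured is not stated in the sources used here, and the difference between the arms cannot be told apart from a difference between the 2 animals.

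These receptors are G protein-coupled and read gradients of chemokines, oxysterols or sphingosine 1-phosphate (S1P), by which a B cell moves between the follicle, the T cell zone, the blood and the gut. CXCR5 draws B cells into the follicle, CCR7 and GPR183 draw activated B cells to its borders, CXCR4 responds to CXCL12 and CCR6 to CCL20. S1PR1 lets lymphocytes follow S1P out of lymphoid organs, S1PR2 restrains migration, and GPR15 steers lymphocytes to the large intestine.

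Totals ran from 36873155 to 60918651 counts per library, and the 8 receptors had between 139 and 26046 counts in a library. Values are CPM, counts scaled to a common library size with TMM factors. All 8 passed the filter on low counts, which kept 12042 genes in the 18 libraries after 0 min. Times stood in for replicates in 3 phases of 3 times each, early (15 min to 1 h), middle (2 to 6 h) and late (12 to 48 h). An error or p-value therefore measures spread between times and not between animals. In the fits between arms the 3 phases share a common estimate of spread per gene, so an SE is not that of 1 phase alone. The labels' lane code differed between the arms at every time, with 5 stimulated libraries alone in lane 4 and 5 untreated libraries alone in lane 1. At 0 min the arms differed by at most 0.22 in log2 ratio for any of the 8 receptors.

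The tissue label was checked against markers. B cell genes were abundant, with Cd79a between 218 and 342.5 CPM in stimulated and between 217 and 317 CPM in untreated libraries. Ms4a1 ran from 265 to 495 CPM in stimulated and from 441 to 597 CPM in untreated libraries. The sum of 9 B cell markers, led by Cd74, was 3920 to 4833 CPM in stimulated and 3739 to 4576 CPM in untreated libraries. Of the 8 tested, 2 were called higher and 2 lower in the middle phase, and 1 higher and 3 lower late. Over all tested genes 20.5% were called in the middle phase and 36.1% late. Some markers of other spleen cells were at or near 0 and others were expressed. Cd3e of T cells reached 0.15 CPM at most in stimulated and 0.223 CPM in untreated libraries, Lyz2 of myeloid cells reached 0.0485 CPM in stimulated and 0.077 CPM in untreated libraries, and S100a8 and the globin gene Hbb-bs were at 0 in all 20. The summed level of 12 T cell markers was 59.8 to 93.6 CPM in stimulated and 59.8 to 75.9 CPM in untreated libraries, most of it Cd5. The sum of 11 macrophage and monocyte markers, led by Csf1r, was 39.1 to 97.3 CPM in stimulated and 25.5 to 60.9 CPM in untreated libraries, with a late median of 50.2 CPM in stimulated and 34.4 CPM in untreated libraries. Csf1r ran from 20.1 to 42.6 CPM in stimulated and from 13.8 to 30.8 CPM in untreated libraries, and the macrophage gene Emr1 from 2.48 to 36.02 CPM in stimulated and from 0.716 to 8.79 CPM in untreated libraries. Of the 3 macrophage and monocyte markers tested, 2 were called higher late, where 17.8% of all tested genes were. The sum of 6 plasma cell markers was 945 to 1434 CPM in stimulated and 991 to 1394 CPM in untreated libraries. It was led by Igj, with a mean of 480 CPM. The plasma cell gene Sdc1 reached 0.177 CPM at most in stimulated and 0.144 CPM in untreated libraries. Of the 4 plasma cell markers tested late 1 was called higher and 3 lower, where 18.3% of all tested genes were lower. The sum of 7 stroma and endothelium markers was 141 to 223 CPM in stimulated and 79.3 to 153 CPM in untreated libraries. Most of it was Madcam1, with a mean of 136.6 CPM, so this sum mainly follows 1 gene. The late median of the sum was 209.6 CPM in stimulated and 103 CPM in untreated libraries. Of the 4 stroma and endothelium markers tested, 2 were called higher late. The part of these cell types in the results was not tested. In such bulk samples fewer cells of a type and less RNA per cell cannot be told apart.

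Gpr183, Cxcr4 and S1pr2, which had different time courses, are shown by the sequence just before their start, as given by RefSeq for GRCm38.p6. Of the 8 receptors 5 had an entry in that table, Ccr6 with 2 starts. The windows lie on the minus strand, at chr14:121965196-121965443 for Gpr183, chr1:128592300-128592549 for Cxcr4 and chr9:20976794-20977043 for S1pr2. Each is printed 5′ to 3′, up to the start, and capitals mark matches to the motifs searched.
Gpr183: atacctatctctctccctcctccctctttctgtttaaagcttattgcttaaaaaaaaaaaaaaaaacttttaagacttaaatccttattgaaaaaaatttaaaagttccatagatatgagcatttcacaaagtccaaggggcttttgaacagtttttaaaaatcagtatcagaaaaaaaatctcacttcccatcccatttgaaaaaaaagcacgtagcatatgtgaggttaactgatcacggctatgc
Cxcr4: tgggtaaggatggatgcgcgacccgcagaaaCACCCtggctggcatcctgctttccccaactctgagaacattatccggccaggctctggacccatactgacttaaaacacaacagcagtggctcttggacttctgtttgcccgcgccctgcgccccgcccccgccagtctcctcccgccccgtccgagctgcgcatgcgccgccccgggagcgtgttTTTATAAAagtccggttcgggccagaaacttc
S1pr2: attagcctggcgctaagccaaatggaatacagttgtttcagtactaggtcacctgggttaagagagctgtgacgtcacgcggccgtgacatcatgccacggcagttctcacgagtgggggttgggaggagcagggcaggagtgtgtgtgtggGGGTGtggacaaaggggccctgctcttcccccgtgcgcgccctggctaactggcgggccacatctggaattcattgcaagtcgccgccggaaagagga
Motifs were searched on both strands in the 250 bases before each start, over 32851 such windows. The kappaB motif, a GGG followed after any 5 bases by a CC, occurred in 45.8% of them. The STAT6 motif, a TTC followed after any 4 bases by a GAA, occurred in 5.85%. The SMAD motif CAGAC occurred in 42.2% of windows and the AP-1 motif TGANTCA in 6.75%. A CACCC box was found in 52.0% and the TATA box TATAAA in 12.4%. Gpr183 held none of these letters. Cxcr4 held a CACCC box and 2 overlapping TATA matches, the nearest of them 25 to 30 bases before the start, and S1pr2 held 1 CACCC box. The Gpr15 window held 1 AP-1, 1 CACCC and 1 SMAD match, but the GENCODE gene model reaches 198 bases into it and all 3 matches touch that exon, so its letters are not shown. GC content was 32.0% for Gpr183 and 31.6% for Gpr15, against 61.2% for Cxcr4 and 59.2% for S1pr2, with a median of 52.4% over all windows.

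Stimulated cells held more Gpr15, Gpr183, Cxcr4, Cxcr5 and Ccr7 mRNA than untreated cells in both the middle and the late phase, and less S1pr2. The middle call of Ccr7 was near the threshold and held in 6 of 18 alternatives. S1pr1 was lower in stimulated cells in the middle phase, and Ccr6 passed the test in no phase under these settings. In the early phase 1 of the 8 receptors was called, Cxcr4, where 2.24% of all tested genes were called, 0.598% higher and 1.64% lower (edgeR, adjusted p under the threshold of 0.05). In the middle phase 5 were called higher and 2 lower, against 10.2% of all tested genes called higher and 10.3% lower, 20.5% in all. In the late phase 5 were called higher and 1 lower, against 17.8% and 18.3%, 36.1% in all. Scaling by library totals alone changed the split over all genes, with 25.1% of the middle-phase calls higher in place of 49.9%, but no direction of a called receptor. Among these calls between arms, that scaling ended the one of Ccr7 in the middle phase (0.33, adjusted p = 0.0886).

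**Figure D1:**
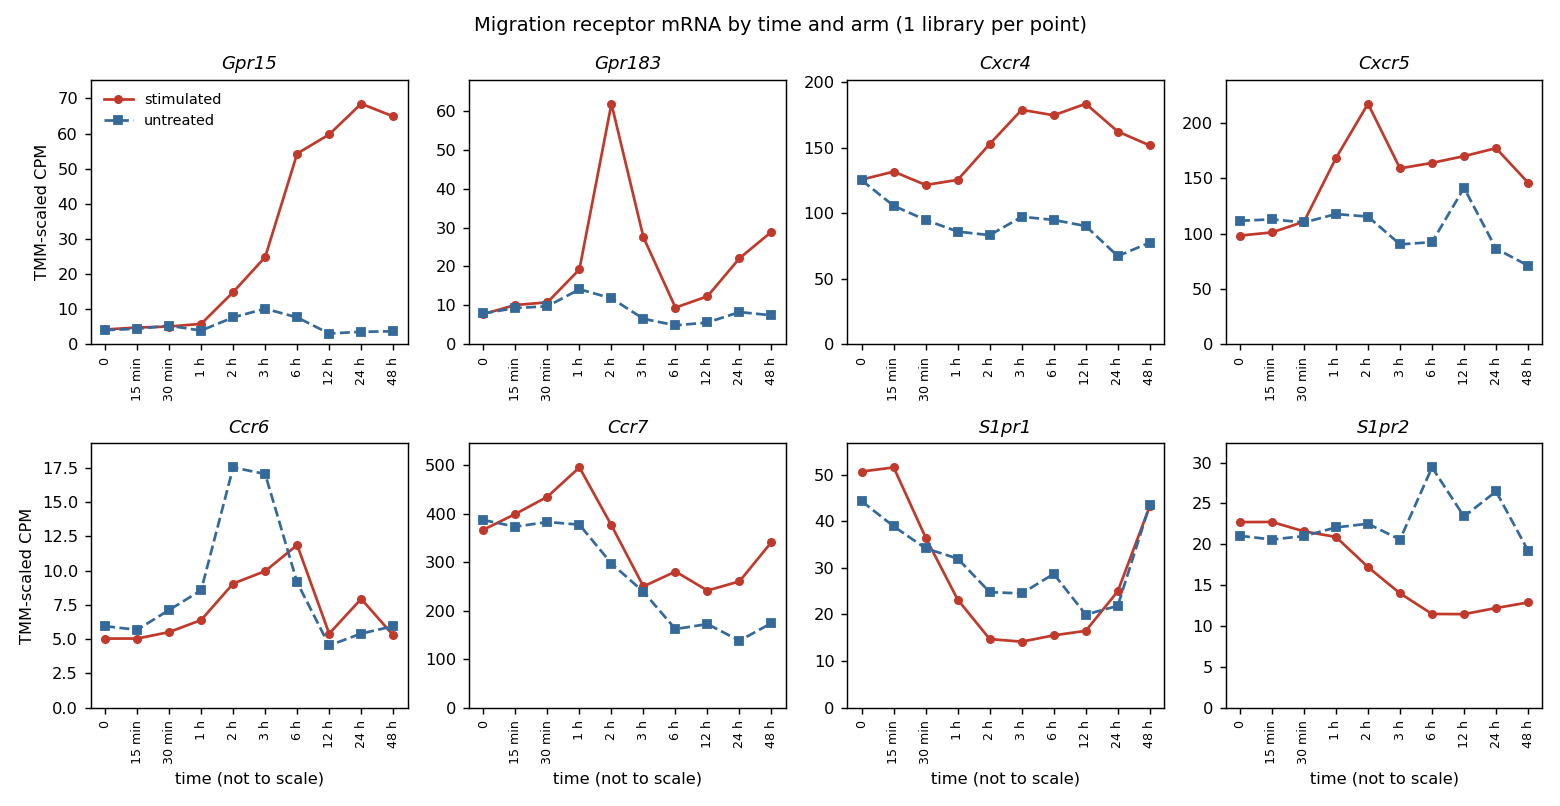
Scaled CPM of the 8 receptors (vertical axis) at each time (horizontal axis, not to scale), with stimulated libraries as red circles and untreated libraries as blue squares, 1 library per point. Gpr15 climbs in stimulated libraries to 68.5 CPM at 24 h, Gpr183 has a peak of 61.9 CPM at 2 h, and S1pr1 is low from 2 to 6 h and back near the untreated level at 48 h.

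**Figure D2:**
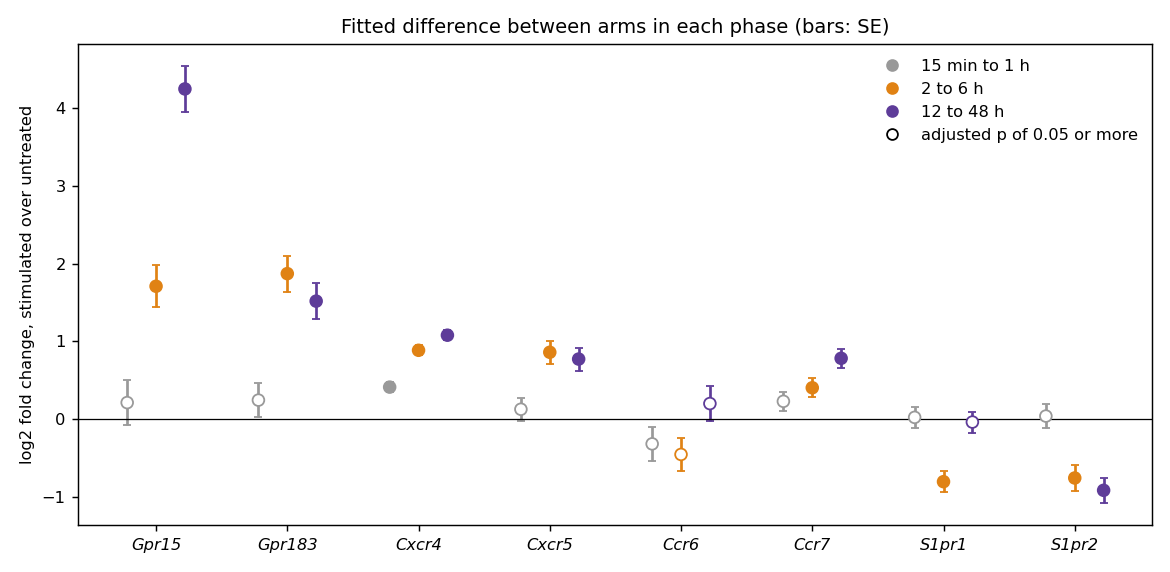
Fitted log2 fold change, stimulated over untreated, of each receptor in the early (grey), middle (orange) and late phase (purple). Bars are the SE from the fit of 18 libraries, in which the phases share a common estimate of spread. Filled points passed an adjusted p of 0.05, and the late Gpr15 value of 4.25 lies far above the others.

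Gpr15, the gut-homing receptor, started at a low level and climbed in stimulated cells from 2 h. At 0, 15, 30 min and 1 h stimulated libraries held 4.14, 4.70, 4.98 and 5.74 CPM, and untreated libraries 3.97, 4.34, 5.22 and 3.84 CPM. The arms overlapped over these times. At 2, 3 and 6 h the stimulated values were 14.8, 24.8 and 54.3 CPM, and the untreated values were 7.59, 10.1 and 7.59 CPM. At 12, 24 and 48 h Gpr15 stood at 59.7, 68.5 and 64.9 CPM in stimulated libraries, against 2.99, 3.49 and 3.63 CPM in untreated libraries. Stimulated libraries were the higher ones at all 6 times from 2 h, with no overlap in the middle or the late phase. The log2 fold change was 1.71 ± 0.27 in the middle phase (SE from the fit of 18 libraries, edgeR adjusted p = 0.00199). It was 4.25 ± 0.30 in the late phase (edgeR adjusted p = 4.73e-06). The late difference exceeded the middle one by 2.54 ± 0.39 (edgeR interaction, adjusted p = 0.00606). The middle call ended with moved phase limits (0.97, adjusted p = 0.0544), with differences taken relative to the 0 min pair (1.64, adjusted p = 0.28), and in a fit that replaced the time factor by a spline and added lane (1.38, adjusted p = 0.468). In that last setting the late value was 3.03, adjusted p = 0.0346.

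Within the stimulated arm the middle phase stood 2.61 ± 0.33 above the early one (adjusted p = 8.18e-05, edgeR over 8 groups of libraries), a call that ended with moved phase limits only (1.64, adjusted p = 0.0867). Untreated cells had their highest Gpr15 at 3 h, and the value at 12 h was the lowest of that arm. Within the untreated arm Gpr15 was higher in the middle than in the early phase by 0.91 ± 0.32 and lower in the late than in the middle phase by a log2 fold change of -1.32 ± 0.33 (same fit, edgeR adjusted p = 0.0469 and 0.0198). The first of these calls held in 7 of 16 alternatives and the second in 12.

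The place of Gpr15 in the genome limits its counts. On GRCm38 the gene is a single exon on the minus strand, at chr16:58717433-58719070, and 204 of its 1638 bases, 12.5%, are shared with the 3′ end of Cpox on the opposite strand. Cpox, which encodes the heme synthesis enzyme coproporphyrinogen oxidase, was far more abundant, and whether the counting used strand is not given in the sources used here. In stimulated libraries Cpox ran from 109 CPM at 1 h to 678 CPM at 12 h, and in untreated libraries from 95.5 to 155 CPM. It was called higher in stimulated cells in the middle phase, by 1.08 ± 0.23, and in the late phase, by 2.12 ± 0.23 (edgeR adjusted p = 0.00879 and 5.79e-05). Up to 1 h Gpr15 amounted to 3.67 to 5.26% of the Cpox value in stimulated and 3.81 to 5.465% in untreated libraries. In stimulated libraries it was 9.23, 8.99, 9.49 and 8.81% at 2, 3, 6 and 12 h. At 24 and 48 h it was 11.9 and 15.7% there. Untreated libraries had 6.45, 6.76 and 4.895% at 2, 3 and 6 h. At 12, 24 and 48 h the untreated share was 2.66, 2.85 and 2.58%. The part of shared reads in the Gpr15 counts was not tested.

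**Figure D3:**
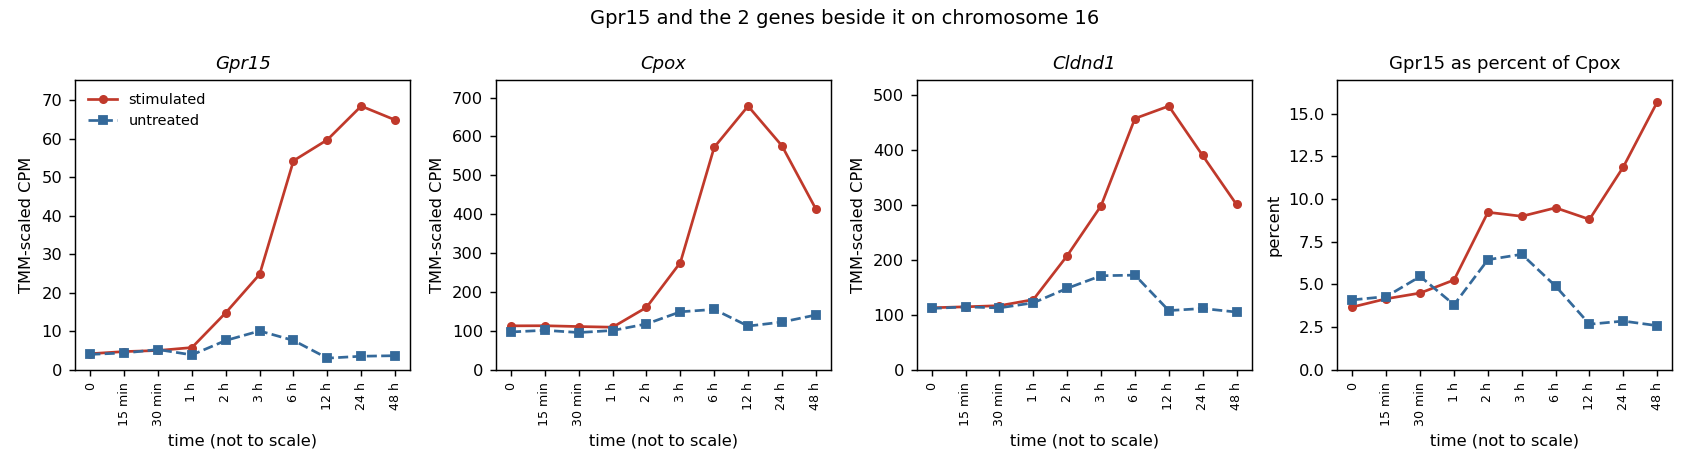
Scaled CPM of Gpr15, of Cpox, which overlaps its end on the other strand, and of the neighbouring gene Cldnd1, with Gpr15 as a percent of Cpox in the right panel, by time (not to scale). Stimulated libraries (red circles) and untreated libraries (blue squares) are 1 per point. In stimulated libraries Gpr15 is 8.81 to 9.49% of Cpox from 2 to 12 h. After 12 h Gpr15 stays near its highest level there. Cpox is lower there at 24 h (576 CPM) and 48 h (414 CPM) than at 12 h (678 CPM).

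Gpr183, the receptor for the oxysterol 7-alpha,25-dihydroxycholesterol, had a sharp peak at 2 h and higher values again at 24 and 48 h. In stimulated libraries it stood at 7.70, 10.1, 10.7 and 19.2 CPM up to 1 h, at 61.9, 27.5 and 9.38 CPM at 2, 3 and 6 h, and at 12.3, 22.1 and 28.9 CPM at 12, 24 and 48 h. In untreated libraries the values were 7.91, 9.25, 9.72 and 14.1 CPM, then 11.8, 6.50 and 4.80 CPM, then 5.55, 8.22 and 7.41 CPM. The stimulated library was the higher of the pair at all 9 times after 0 min. The 2 h library stood apart from the other stimulated ones, and the 6 h library was the lowest of that arm after 0 min. The log2 fold change was 1.87 ± 0.23 in the middle phase and 1.52 ± 0.23 in the late phase (edgeR adjusted p = 0.000469 and 0.000435). The libraries did not overlap in the late phase and did overlap in the middle one, where stimulated cells at 6 h were below untreated cells at 2 h. The difference between arms was larger in the middle than in the early phase by 1.63 ± 0.32 (edgeR interaction, adjusted p = 0.0165). That call ended without 15 min, 30 min or 3 h (1.51 to 1.58, adjusted p 0.0815 to 0.0839). Relative to the 0 min pair, the middle and late calls ended (1.90 and 1.57, adjusted p = 0.105 and 0.0678). In the spline with lane the middle value was 2.44 and no longer called (adjusted p = 0.0585), and the late value was 2.10 (adjusted p = 0.042). Gpr183 lies within Ubac2, which runs on the opposite strand, and shares no exon base with it. Ubac2 was called higher only in the late phase among the 3 phases, by 0.25 ± 0.06 (edgeR adjusted p = 0.00499).

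Cxcr4, the CXCL12 receptor, was the receptor called in all 3 phases. It had 132, 121 and 125 CPM in stimulated libraries at 15 min, 30 min and 1 h, against 106, 94.7 and 85.8 CPM in untreated libraries. At 2, 3 and 6 h the stimulated values were 153, 179 and 175 CPM, with 83.1, 97.1 and 94.7 CPM in untreated libraries. At 12, 24 and 48 h there were 183, 162 and 152 CPM in stimulated libraries, and 90.04, 67.1 and 77.4 CPM in untreated libraries. The arms started alike, at 126 CPM in the stimulated and 125.0 CPM in the untreated library at 0 min, and did not overlap in any phase. Untreated libraries after 0 min all lay under their own starting level. The log2 fold change was 0.41 ± 0.06 early, 0.88 ± 0.06 in the middle phase and 1.08 ± 0.06 late (edgeR adjusted p = 0.0088, 2.58e-05 and 3.84e-06). The middle difference exceeded the early one by 0.47 ± 0.09 (edgeR interaction, adjusted p = 0.0131). That call ended without 15 min, 30 min or 3 h (0.42 to 0.47, adjusted p 0.0631 to 0.0763). Moved phase limits (0.43, adjusted p = 0.454) and the spline with lane (0.50, adjusted p = 0.199) ended it as well. The early call ended without 30 min (0.43, adjusted p = 0.0885) or 1 h (0.34, adjusted p = 0.0619). It also ended relative to the 0 min pair (0.40, adjusted p = 1), with moved phase limits (0.34, adjusted p = 0.183) and in the splines without and with lane (0.42 and 0.38, adjusted p = 0.0638 and 0.558). The middle call ended in the spline with lane only (0.88, adjusted p = 0.0715), and the late call held in all 18 alternatives run for it.

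Cxcr5, the CXCL13 receptor that places B cells in follicles, was higher in stimulated cells from 1 h. The stimulated libraries held 217, 159 and 164 CPM at 2, 3 and 6 h, and the untreated ones 115, 90.2 and 92.2 CPM. At 12, 24 and 48 h they held 170.0, 177 and 146 CPM in the stimulated arm and 141, 86.3 and 70.9 CPM in the untreated arm. The arms did not overlap in either phase, and the untreated 12 h library was the highest of its arm. The log2 fold change was 0.86 ± 0.15 in the middle and 0.77 ± 0.15 in the late phase (edgeR adjusted p = 0.00295 and 0.00208). Both calls ended relative to the 0 min pair (1.04 and 0.97, adjusted p = 0.155 and 0.0747) and in the spline with lane (0.88 and 0.89, adjusted p = 0.306 and 0.15). Its 3′ end shares 110 exon bases, 3.3% of its exons, with Bcl9l on the opposite strand. Bcl9l was called higher in the middle phase (0.47 ± 0.12, edgeR adjusted p = 0.0184) and its late value was -0.27 (adjusted p = 0.0999).

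Ccr7, which responds to CCL19 and CCL21 of the T cell zone, was the most abundant of the 8 per length and was lower in the middle than in the early phase of both arms. In stimulated libraries it had 399, 435 and 495 CPM in the early phase, 376, 249.8 and 281 CPM in the middle phase, and 241, 260.3 and 341 CPM in the late phase. Untreated libraries had 373, 383 and 377 CPM, then 297, 239 and 162 CPM, then 172, 138 and 174 CPM. The stimulated library was higher at all 9 times after 0 min, and the arms overlapped in the middle phase only. The late log2 fold change was 0.78 ± 0.12 (edgeR adjusted p = 0.000636). The late call ended relative to the 0 min pair (0.87, adjusted p = 0.0579) and in the spline with lane (0.71, adjusted p = 0.193). The middle value of 0.40 ± 0.12 was just past the threshold (edgeR adjusted p = 0.0407), and it stayed past it in 6 of 18 alternatives. It was not called without 15 min, 30 min, 1 h, 2 h, 6 h or 24 h, with values of 0.20 to 0.43 and adjusted p of 0.0508 to 0.295. Other settings that ended the middle call included DESeq2 (0.40, adjusted p = 0.0923) and library totals (0.33, adjusted p = 0.0886). A filter of 5 CPM ended it too (0.38, adjusted p = 0.055). From the early to the middle phase Ccr7 fell by 0.55 ± 0.20 on the log2 scale in the stimulated and by 0.70 ± 0.20 in the untreated arm (edgeR adjusted p = 0.0334 and 0.0193). Those 2 calls held in 11 and 10 of 16 alternatives.

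Ccr6, the CCL20 receptor, did not pass the test between arms in any phase under the settings used here, and passed it in the middle phase under 3 alternatives. In stimulated libraries it was at 5.04 CPM at 0 min, 9.05, 9.96 and 11.9 CPM at 2, 3 and 6 h, and 5.39, 7.93 and 5.28 CPM at 12, 24 and 48 h. In untreated libraries it stood at 5.94 CPM at 0 min, at 17.5, 17.04 and 9.13 CPM at 2, 3 and 6 h, and at 4.54, 5.40 and 5.94 CPM at the late times. The stimulated peak came at 6 h and the untreated one at 2 h, so the pair at 6 h ran against the pairs at 2 and 3 h. The middle difference between arms was -0.46 ± 0.21 and did not pass the test (edgeR adjusted p = 0.158). It did pass without 6 h (-0.87, adjusted p = 0.00647), with moved phase limits (-0.72, adjusted p = 0.0225) and without a filter on low counts (-0.46, adjusted p = 0.00368). Within the arms Ccr6 was higher in the middle than in the early phase, by 0.87 ± 0.24 in the stimulated and 1.03 ± 0.24 in the untreated arm (edgeR adjusted p = 0.0107 and 0.00842). Both calls ended with moved phase limits (0.68 and 1.17, adjusted p = 0.263 and 0.304), and the untreated one also without 15 min, 30 min or 3 h (0.90 to 1.03, adjusted p 0.0538 to 0.059). From the middle to the late phase it fell by 0.73 ± 0.24 in the stimulated and by 1.46 ± 0.24 in the untreated arm (edgeR adjusted p = 0.042 and 0.00388). The untreated late call held in all 16 alternatives run for it, and the stimulated one in 10, with -0.15 and an adjusted p of 0.724 under moved phase limits.

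S1pr1, the egress receptor, was at its lowest in stimulated cells from 2 to 6 h. Stimulated libraries held 50.7, 51.6, 36.5 and 23.2 CPM from 0 min to 1 h, 14.7, 14.2 and 15.5 CPM at 2, 3 and 6 h, and 16.5, 25.0 and 43.2 CPM at 12, 24 and 48 h. Untreated libraries held 44.3, 38.9, 34.2 and 32.0 CPM, then 24.8, 24.5 and 28.7 CPM, then 19.97, 21.9 and 43.5 CPM. All 3 stimulated values of the middle phase lay under all 3 untreated ones, and at 48 h the arms were alike. The middle log2 fold change was -0.81 ± 0.14 (edgeR adjusted p = 0.00301), and the late one was -0.04 ± 0.14 (adjusted p = 0.849). The middle call ended relative to the 0 min pair (-1.004, adjusted p = 0.135), with moved phase limits (-0.66, adjusted p = 0.0502) and in the splines without and with lane (-0.59 and -0.88, adjusted p = 0.0737 and 0.308). The change of the difference from early to middle, -0.83 ± 0.19, and from middle to late, 0.77 ± 0.19, passed the test (edgeR interaction, adjusted p = 0.0323 and 0.039). The first was lost without 15 min, 30 min, 2 h, 3 h or 6 h (-0.86 to -0.63, adjusted p 0.0521 to 0.123). The second was lost without 30 min, 2 h, 3 h, 6 h, 24 h or 48 h (0.67 to 0.80, adjusted p 0.0606 to 0.138). With moved phase limits they were -0.91 and 0.41 (adjusted p = 0.438 and 0.288), in the spline without lane -0.57 and 0.33 (adjusted p = 0.294 and 0.657), and with lane -0.76 and 0.78 (adjusted p = 0.238 and 0.4), none of them called. Within the stimulated arm S1pr1 fell by 1.33 ± 0.34 from the early to the middle phase (edgeR adjusted p = 0.0067). This call ended without 15 min (-1.005, adjusted p = 0.0559) and with moved phase limits (-1.34, adjusted p = 0.0786).

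S1pr2, which couples to G12 and G13 proteins and holds B cells in place, was lower in stimulated cells from 1 h on. It had 17.2, 14.0 and 11.5 CPM in stimulated libraries at 2, 3 and 6 h and 11.4, 12.2 and 12.9 CPM at 12, 24 and 48 h. Untreated libraries had 22.5, 20.6 and 29.4 CPM and then 23.4, 26.5 and 19.2 CPM. The arms did not overlap in the middle or the late phase, and up to 30 min they had differed by no more than 0.14 in log2 ratio. The log2 fold change was -0.76 ± 0.16 in the middle phase and -0.92 ± 0.16 in the late phase (edgeR adjusted p = 0.00918 and 0.00134). Within the stimulated arm it fell by 0.61 ± 0.16 from the early to the middle phase (edgeR adjusted p = 0.00669), a call held in 15 of 16 alternatives. Both differences between arms lost the call relative to the 0 min pair (-0.87 and -1.02, adjusted p = 0.27 and 0.0821) and in the spline with lane (-0.72 and -0.75, adjusted p = 0.394 and 0.234), and the middle one also with moved phase limits (-0.33, adjusted p = 0.192). S1pr2 was still below the untreated level at 48 h, at 12.9 CPM in the stimulated and 19.2 CPM in the untreated library.

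**Figure D4:**
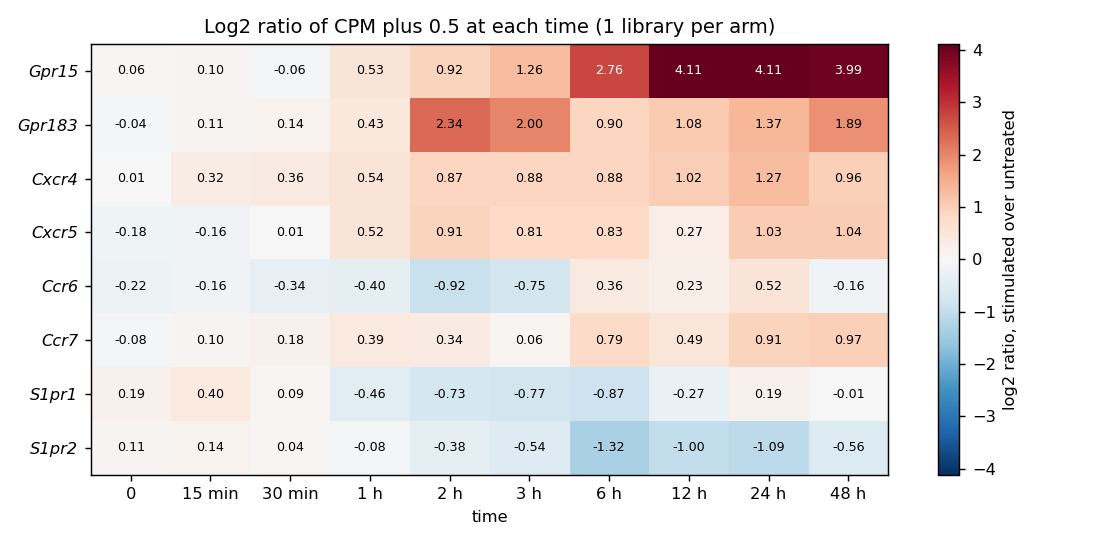
Log2 ratio of CPM plus 0.5, stimulated over untreated, for the 8 receptors (rows) at each of the 10 times (columns), 1 library per arm, with red for higher and blue for lower in stimulated libraries. The Gpr183 ratio is 2.34 at 2 h and 0.90 at 6 h, whereas the Gpr15 ratio grows to 4.11 at 12 and 24 h, and S1pr2 has its lowest ratio, -1.32, at 6 h.

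Counted by separation, 2 of the 8 receptors had no overlap between the 3 stimulated and the 3 untreated libraries in the early phase (Cxcr4 and Ccr7), where 20.4% of all tested genes had none. In the middle phase 5 had none, against 15.9% of all tested genes. These were Gpr15, Cxcr4, Cxcr5, S1pr1 and S1pr2. In the late phase 6 had none, against 24.5%, and only Ccr6 and S1pr1 overlapped. The difference between arms changed from the early to the middle phase for 4 of 8 receptors (Gpr15, Gpr183, Cxcr4 and S1pr1), where 6.38% of all tested genes changed. From the middle to the late phase it changed for 2 of 8 (Gpr15 and S1pr1), where 6.74% of all tested genes did. The Gpr15 change from early to middle, 1.497 ± 0.40, was just past the threshold (edgeR adjusted p = 0.0485), and it was lost without 15 min, 30 min, 1 h, 3 h or 24 h (1.36 to 1.71, adjusted p 0.0682 to 0.165). With lane as an added term, 5 of the 6 changes lost the call. These were both Gpr15 changes (1.79 and 1.99), that of Gpr183 (1.35) and both S1pr1 changes (-0.95 and 1.02), with adjusted p of 0.0543 to 0.105, while Cxcr4 kept it. In the spline with lane, and with moved phase limits, the early to middle change was called for 0 of 8 receptors. Cxcr4 was among those lost. The late minus middle change of Gpr15 also ended in the splines without and with lane (1.53 and 1.65, adjusted p = 0.154 and 0.406).

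Within the stimulated arm 6 of 8 receptors changed from the early to the middle phase, where 41.3% of all tested genes did, a count that fell to 0 of 8 with moved phase limits. From the middle to the late phase 2 of 8 changed there, where 21.6% did. Within the untreated arm 3 of 8 changed from early to middle and 2 of 8 from middle to late, against 25.4% and 12.0% of all tested genes. Besides those given above, Cxcr4 was higher in the middle than in the early phase of the stimulated arm by 0.42 ± 0.11 (edgeR adjusted p = 0.00977), a call lost without 30 min (0.40, adjusted p = 0.0524) or 3 h (0.38, adjusted p = 0.0503). Scaling by library totals ended this Cxcr4 call as well (0.28, adjusted p = 0.0676). The stimulated late Gpr15 level exceeded the middle one by 1.04 ± 0.31 (edgeR adjusted p = 0.0272), which held in 10 of 16 alternatives.

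Levels between receptors were compared per kilobase of GENCODE exon, taken as all exon bases of a gene's transcripts together. That length was 7971 bases for S1pr2 and 1638 to 3332 for the other receptors, and which transcripts were present was not tested. Before that division the stimulated median of S1pr2, 15.6 CPM, lay above that of Ccr6, 5.95 CPM. The median over the 10 stimulated libraries was 179 CPM per kb for Ccr7, 84.1 for Cxcr4, 48.4 for Cxcr5, 12.1 for Gpr15, 7.90 for S1pr1, 5.46 for Gpr183, 2.56 for Ccr6 and 1.958 for S1pr2. Over the 10 untreated libraries it was 135 CPM per kb for Ccr7, 51.1 for Cxcr4, 33.2 for Cxcr5, 9.96 for S1pr1, 2.82 for Ccr6, 2.79 for Gpr183, 2.71 for S1pr2 and 2.54 for Gpr15. The ranges of the last 4 in untreated libraries overlapped, from 1.66 to 7.55 CPM per kb. These medians pool all times, over which stimulated Gpr15 ran from 2.53 to 41.8 CPM per kb.

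Other receptors of the same kind were counted from a list of 33, of which 20 were expressed enough to be tested. In the early phase 0 of the 20 were called, in the middle phase 2 were higher and 5 lower, and in the late phase 5 were higher and 8 lower, with a late median log2 fold change of -0.0526 against -0.0037 over all tested genes. Of all tested genes 2.24% were called early, 10.2% were higher and 10.3% lower in the middle phase, and 17.8% were higher and 18.3% lower late. The counts include genes that passed the filter almost wholly through 1 arm, Cxcr3 and Ackr4 among them, so the shares are a description only. The S1P receptor S1pr3 was higher in the middle phase by 1.61 ± 0.22 (edgeR adjusted p = 0.000789). Ccr4, a receptor for CCL17 and CCL22, was higher in the middle phase by 1.04 ± 0.24 and in the late phase by 3.14 ± 0.24 (edgeR adjusted p = 0.0135 and 6.56e-06). Ccrl2 was higher late by 0.99 ± 0.18 (edgeR adjusted p = 0.00134). Cxcr6, the CXCL16 receptor, and Gpr34 were lower late, with log2 fold changes of -1.83 ± 0.37 and -1.70 ± 0.21 (edgeR adjusted p = 0.00292 and 0.000121). Late levels of Ccrl2 were low, at 1.48, 1.94 and 7.64 CPM in stimulated and 1.03, 0.877 and 3.29 CPM in untreated libraries. Those of Cxcr6 were near the filter, at 1.185, 0.315 and 0.206 CPM in stimulated and 1.89, 2.33 and 1.24 CPM in untreated libraries.

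Of 18 ligands and enzymes of ligand metabolism, 5 were expressed enough to be tested, and 0 of these were called early, 1 higher and 2 lower in the middle phase, and 1 higher and 2 lower late, beside the 10.2% higher and 10.3% lower in the middle phase and the 17.8% and 18.3% late of all tested genes. Sgpl1, the lyase that degrades S1P, was higher by 0.53 ± 0.07 in the middle and 0.47 ± 0.07 in the late phase (edgeR adjusted p = 0.000661 and 0.000434). Hsd3b7, which breaks down the GPR183 ligand, was lower by a log2 fold change of -0.55 ± 0.15 in the middle phase (edgeR adjusted p = 0.0225). Of 25 genes of G protein and receptor signalling 23 were tested. Of these 0 were higher and 1 lower early, 3 higher and 4 lower in the middle phase, and 4 higher and 8 lower late. Over all tested genes 0.598% were higher and 1.64% lower early, 20.5% were called in the middle phase and 36.1% late. Pik3cg, the catalytic subunit of the phosphoinositide 3-kinase that G proteins activate, had the largest late decrease of the list, -2.50 ± 0.23, and the receptor kinase Grk5 the largest increase, 0.66 ± 0.08 (edgeR adjusted p = 1.71e-05 and 0.000148).

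Known regulators of these receptors made a list of 18, of which 15 were tested. The early phase had 1 higher and 0 lower, the middle phase 6 higher and 2 lower, and the late phase 5 higher and 4 lower, where 2.24% of all tested genes were called early, 20.5% in the middle phase and 36.1% late. Cd69, whose protein binds S1PR1 and takes it off the cell surface, had 347, 655 and 677 CPM in stimulated libraries at 15 min, 30 min and 1 h, against 174, 143 and 80.9 CPM in untreated libraries. That was a log2 fold change of 2.09 ± 0.30 (edgeR adjusted p = 0.00825), and by 2 h Cd69 stood at 81.6 CPM in the stimulated and 76.4 CPM in the untreated library. Foxo1, which promotes S1pr1 transcription in mouse T cells, was lower in the middle phase by a log2 fold change of -0.38 ± 0.05 (edgeR adjusted p = 0.0011). Klf2, another such factor, had no more than 0.464 CPM in stimulated and 0.335 CPM in untreated libraries and was not tested. Ahr, the aryl hydrocarbon receptor, a promoter of Gpr15 expression in mouse T cells, was higher by 1.79 ± 0.22 in the middle and 1.47 ± 0.21 in the late phase (edgeR adjusted p = 0.000422 and 0.000371). The largest late changes of the list were those of Prdm1, -2.01 ± 0.14, and Nfkb2, 1.53 ± 0.10 (edgeR adjusted p = 4.73e-06 and 4.29e-06). Irf4 was higher in the middle phase (0.95 ± 0.16) and Ebf1 lower late (-0.72 ± 0.10, edgeR adjusted p = 0.00235 and 0.000255). The part of any listed regulator in the receptor levels was not tested.

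Genes with the most similar course were sought among 9114 genes with a mean of at least 5 CPM, by Pearson correlation of log2 CPM over the 20 libraries, which share their 2 animals and their times. Syngr2 (r = 0.99), Cldnd1 (0.975) and Tspan33 (0.963) came nearest to Gpr15. Cldnd1 is also its neighbour on chromosome 16, and it was called higher in the middle phase by 0.90 ± 0.14 and late by 1.82 ± 0.15 (edgeR adjusted p = 0.00199 and 9.2e-06). For Gpr183 these were Zzz3 (0.902), Rnf24 (0.884) and Ccnd1 (0.862). Nearest to Cxcr4 were Nfkbie (0.934), Tmed8 (0.908) and Stx11 (0.891), and to Cxcr5 Spsb1 (0.913), Nfkbia (0.876) and Zcchc9 (0.876). Ccr6 lay nearest to Abhd12 (0.909), Entpd7 (0.906) and Qpctl (0.887), and Ccr7 to Fam167a (0.949), Nfil3 (0.947) and Fam46c (0.947). S1pr1 was nearest to Pik3ip1 (0.945), Acap2 (0.927) and Zfp775 (0.909), and S1pr2 to Wnt10a (0.947), Pqlc3 (0.94) and Hhex (0.925).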

How the data were processed

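Poly-A messenger RNA was measured in 20 libraries of mouse cells labelled spleen, 10 stimulated and 10 untreated. The deposited values are counts per gene. The submitters' processing notes name STAR and HTSeq as tools and GRCm38.p3 and mm10 as builds, and no source used here gives their versions, settings or use of strand. The receptors, gene lists and tests were chosen with earlier results of these data known. All 8 receptors are described, with the 3 genes of most similar course for each. From each list come up to 3 called genes in each direction and phase with the largest change, of which a selection is printed. Foxo1, Klf2 and the genes next to a receptor were picked after their values were seen.

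The filter asked for 1 CPM or more in 3 or more libraries, which left 12042 genes when the 0 min pair was left out and 12139 with it. Tests used edgeR 4.0.16 in R 4.3.3 (TMM scaling, quasi-likelihood F-test, Benjamini-Hochberg adjustment over all tested genes). Treatment was fitted within each phase with time as a factor, so that stimulated and untreated libraries of 1 time were set against each other. Changes within an arm came from a model of 8 groups, arm by phase. The SE is the size of the log2 fold change over the square root of F. Ratios at single times use CPM plus 0.5 and have no test. Exon lengths and overlaps came from GENCODE vM21 on GRCm38, and sequences from RefSeq. A floor of 3 counts was 0.0492 to 0.0814 CPM and covers counting error only. Alternatives included DESeq2 1.42.0 and other scalings, filters and phase limits. Replacing the time factor by a spline, with or without lane, was chosen after seeing the data. The main fits, between arms and within an arm, were first tried on simulated counts with known changes. Apart from those changes the simulated means were flat over time, with a common spread for all genes. The alternatives were not tried on simulated counts.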

Additional observations from a re-analysis of the deposited data

Results flagged for a closer look

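The difference between stimulated and untreated cells changed between phases for 4 receptors, by the edgeR interaction test. From the early to the middle phase the log2 fold change moved by 1.497 for Gpr15, 1.63 for Gpr183, 0.47 for Cxcr4 and -0.83 for S1pr1. From the middle to the late phase it moved by 2.54 for Gpr15 and 0.77 for S1pr1. Lane differed between the arms at all times, and its part in these changes was not tested within lanes, because 0 times had both arms in 1 lane.

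The stimulated Gpr183 library at 2 h, 61.9 CPM, stood apart from the other 9 stimulated libraries, with a gap of 0.609 of the whole range against a critical value of 0.466 for 10 libraries. The 10 libraries are different times and not repeats of 1 state, and chance flags about 1 in 20 of such groups, of which 16 were checked.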

How the results depend on the processing

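Alternatives were run for all calls, 1 choice changed at a time apart from the spline with lane, which changed 2. Of 354 values of single receptors under another setting, 276 kept their direction and their side of the threshold, 66 lost the call, 3 gained one and 9 changed direction. Of 400 with a time left out these numbers were 328, 66, 1 and 5. No called receptor changed direction in any of them, and the late calls of Gpr15 and Cxcr4 held in all 18. Values that changed direction were uncalled: early Gpr15 with the spline and lane (-0.56), early S1pr1 relative to the 0 min pair (-0.175), with the spline (-0.0115) and with the spline and lane (-0.12), early S1pr2 relative to the 0 min pair (-0.0757) and with the spline (-0.0084), early Cxcr5 with moved phase limits (-0.0726), and late Ccr6 with the spline (-0.0694) and with the spline and lane (-0.55). With a time left out, the early value ran from -0.0732 to 0.271 for Cxcr5, -0.18 to 0.25 for S1pr1 and -0.0141 to 0.0938 for S1pr2, and the late S1pr1 value from -0.136 to 0.0856.

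Numbers of genes called, and of the 8 receptors, moved by over 1.5 times in these settings. In the main fits 270, 2463 and 4351 genes were called between arms in the early, middle and late phase, 768 and 812 for the change of that difference (early to middle, middle to late), 5017 and 2627 over the same steps within the stimulated arm, and 3089 and 1459 within the untreated arm. DESeq2 called 426 genes early and 2223 from middle to late in the untreated arm. Without a filter on low counts there were 747 genes and 2 receptors early, 1401 and 1631 genes for the changes of the difference, and 4 receptors for the later change. Relative to the 0 min pair, 0 genes and 0 receptors were called early (267 genes and 1 receptor at unadjusted p under 0.05), 43 genes and 1 receptor in the middle phase, and 847 genes and 2 receptors late. Moved phase limits gave 62 genes and 0 receptors early, 458 genes and 4 receptors in the middle phase, 2 genes and 0 receptors for the first change of the difference and 4 receptors for the second, S1pr1 not among them. Within the stimulated arm they gave 99 genes and 0 receptors, then 4649 genes, and within the untreated arm 0 genes and 0 receptors, then 3118 genes. The spline alone gave 38 genes and 0 receptors early, 1241 and 2331 genes in the middle and late phase, 261 genes and 2 receptors for the first change and 247 genes and 0 receptors for the second. The spline with lane gave 0 genes and 0 receptors early (815 genes at unadjusted p under 0.05), 21 genes and 0 receptors in the middle phase, 185 genes and 3 receptors late, 59 genes and 0 receptors for the first change, and 0 genes and 0 receptors for the second. Lane as an added term left 241 genes and 1 receptor for the first change and 44 genes and 0 receptors for the second, and differences within a phase could not be fitted with it. The cause of these shifts was not tested. Fewer libraries enter each fit when a time is left out. The number of genes then ran from 9 to 494 early, 899 to 3004 in the middle phase, 136 to 1296 and 194 to 1616 for the changes of the difference, 3164 to 5833 and 812 to 4836 in the stimulated arm, and 698 to 4316 and 93 to 3833 in the untreated arm. Receptors called ran from 0 to 1 early, 0 to 6 and 1 to 3 for the changes of the difference, 0 to 4 in the stimulated arm from middle to late, and 0 to 3 and 1 to 3 in the untreated arm. Scaling by library totals moved the median log2 change of all genes by over 0.1 in 1 comparison, to -0.14 from early to middle in the stimulated arm, where 37.5% of calls were then higher. With a pseudocount of 2 CPM, 7 of the 80 ratios at single times moved by more than their counting error, to 2.55, 3.63, 3.68 and 3.57 for Gpr15 at 6, 12, 24 and 48 h and to 2.21, 1.79 and 1.72 for Gpr183 at 2, 3 and 48 h. Libraries were paired by time in the fits between arms. No paired analysis by replicate number was made, since the labels carry none.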
